A study of Drosophila melanogaster with 3 samples.

Results

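Rab genes encode small GTPases of membrane traffic, and this account follows the binding of a GFP-tagged forkhead factor, FoxL1 (fd64A), at these genes in Drosophila melanogaster embryos. The members were all protein-coding genes whose Ensembl symbol begins with Rab followed by a digit or X, which gave 36 of 13945 protein-coding genes. Of these, 33 encode GTPases and 3 (Rab3-GEF, Rab3GAP1 and Rab3-GAP) encode regulators of Rab3 that share only the start of the symbol. Whole embryos of 8 to 14 hours, male and female together, were assayed by ChIP-seq, which sequences the DNA recovered with the tagged protein. All embryos came from a single transgenic line, fd64A-GFP, in which GFP is fused to the C terminus of fd64A, and the labels do not state the promoter that drives the fusion. There was 1 group of 3 biological replicates and no untagged line or second condition, so peaks were compared between replicates and between Rab genes and all protein-coding genes. Whole embryos hold many cell types, and a peak carried by a small share of cells and a weak peak in all of them cannot be told apart.

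The files hold peaks, not reads, and the sequencing depth is unknown. Each replicate had a relaxed list of 30000 peaks, the pooled replicates had another, and a further list held the 2919 peaks that passed the authors' threshold on the irreproducible discovery rate (IDR). The signal of a peak is the authors' own value and ranks peaks within a list, with rank 1 the strongest. A leading peak is one of the 2919 strongest of a replicate. A gene was taken to carry a peak where the summit lay between 2000 bp upstream of its most upstream transcription start site (TSS) and its end. The deposited q-value was under 0.05 for 4964, 3017 and 1598 peaks of replicates 1, 2 and 3, so replicate 3 supplied the fewest.

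Rab proteins switch between a GTP-bound form, which recruits effectors to a membrane, and a GDP-bound form, which is extracted to the cytosol. Guanine nucleotide exchange factors (GEFs) turn them on, GTPase-activating proteins (GAPs) turn them off, and each Rab marks its own compartment. In embryos that are forming epithelia, glands and the tracheal tubes, Rab-dependent traffic delivers membrane and secreted or junctional proteins to the cell surface. FoxL1 belongs to the forkhead family, whose proteins are known to bind words such as GTAAACA.

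An IDR peak was carried by 7 of the Rab genes, 1 each: Rab32, Rab11, Rab9, Rab5, Rab18, Rab8 and Rab30. The 101 bases around their summits are shown because they are the DNA on which these peaks are centred. They are followed by Rab14, whose strongest pooled peak had rank 2925 and so fell just outside the list, and by Rab23, which had a leading peak in every replicate but not in the IDR list. All are on the plus strand of dm6, read from the NCBI release 6 assembly, which holds the same arms. Rab32 is described by its position alone. Capitals mark matches, on either strand, to the 4 forkhead words (ATAAACA and ATAAATA with GTAAACA and GTAAATA), to GCAAACA, to GATA words (AGATAA or TGATAA), to CGATA, which is part of the site of the insulator protein BEAF-32, and to GAGAG, the core of the GAGA factor site. The windows are chr3R:21113306-21113406 for Rab11, chr2L:19434446-19434546 for Rab9, chr2L:2363816-2363916 for Rab5, chrX:5672697-5672797 for Rab18 and chr3L:19871091-19871191 for Rab8. Those of Rab30, Rab14 and Rab23 are chr2L:7033288-7033388, chr2L:14355653-14355753 and chr3R:5682987-5683087.
Rab11: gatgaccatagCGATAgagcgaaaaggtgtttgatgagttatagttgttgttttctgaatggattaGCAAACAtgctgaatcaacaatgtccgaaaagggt
Rab9: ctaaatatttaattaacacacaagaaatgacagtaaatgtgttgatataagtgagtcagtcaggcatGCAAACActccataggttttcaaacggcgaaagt
Rab5: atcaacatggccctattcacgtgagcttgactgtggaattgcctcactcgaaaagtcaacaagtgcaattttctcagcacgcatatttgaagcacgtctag
Rab18: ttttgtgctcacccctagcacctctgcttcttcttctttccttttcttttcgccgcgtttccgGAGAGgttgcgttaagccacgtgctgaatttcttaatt
Rab8: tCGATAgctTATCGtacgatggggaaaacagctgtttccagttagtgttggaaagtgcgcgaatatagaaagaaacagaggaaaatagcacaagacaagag
Rab30: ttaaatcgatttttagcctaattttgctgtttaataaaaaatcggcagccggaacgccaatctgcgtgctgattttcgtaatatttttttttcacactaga
Rab14: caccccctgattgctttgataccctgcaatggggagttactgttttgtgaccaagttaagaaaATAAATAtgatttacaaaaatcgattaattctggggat
Rab23: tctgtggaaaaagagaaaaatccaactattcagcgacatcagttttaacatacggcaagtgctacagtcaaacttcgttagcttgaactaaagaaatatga

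The 7 carriers were 19.4% of the Rab genes (95% Wilson interval 9.75 to 35.0), against 16.9% of all protein-coding genes, so the share lay close to the background and its interval contains it. All 7 carriers were GTPase genes and none of the 3 regulators carried an IDR peak. The share grew with gene length. Among genes over 3534 bp, 4 of 13 Rab genes carried a peak, against 31.7% of all such genes. Among genes of up to 1465 bp the count was 1 of 10 Rab genes, against 7.33% of all such genes, and at lengths between these it was 2 of 13, against 11.8%. The median length was 2882 bp for Rab genes, against 2166 bp for all protein-coding genes. In the replicates, 7, 9 and 8 Rab genes held a leading summit in replicates 1, 2 and 3, a mean of 8.00 ± 1.00 (SD, n = 3), or 22.2% ± 2.78 of the members. This SD is the spread of the same genes over 3 lists and not the counting error of the share. Over all protein-coding genes the same shares were 16.9%, 17.2% and 16.2%. Each lies inside the 95% Wilson interval of the Rab share of that replicate (9.75 to 35.0, 13.8 to 41.1 and 11.7 to 38.1).

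Along the list of pooled peaks, the share of Rab genes lay at or somewhat above that of all genes, with no allowance for gene length. With the strongest 500 peaks, 2 Rab genes carried a summit, 5.56%, against 4.13% of all protein-coding genes. With 1000 peaks there were 4, or 11.1%, against 7.30%, and with 1500 there were 5, or 13.9%, against 10%. Beyond the IDR list both shares rose and the gap was wider in percentage points, though not in proportion at 6000 peaks. There were 12 in 6000 peaks (33.3%, against 28.0%) and 21 in 12000 peaks (58.3%, against 42.7%). Most peaks of these longer lists have a q-value above 0.05. The strongest 1459 IDR peaks gave 5 Rab genes, against 9.82% of all genes. Pooled peaks with q under 0.05 gave 6 Rab genes, or 16.7%, against 16.3%. By replicate, q under 0.05 gave 11, 9 and 5 Rab genes, against 25%, 17.7% and 10.3% of all genes. With the span counted without any upstream part, 4 Rab genes were left, 11.1%, against 9.50% of all genes. With 1000 bp upstream there were 7, against 15.1% of all genes, and with overlap of the peak in place of its summit there were also 7, against 17.5%.

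**Figure D1:**
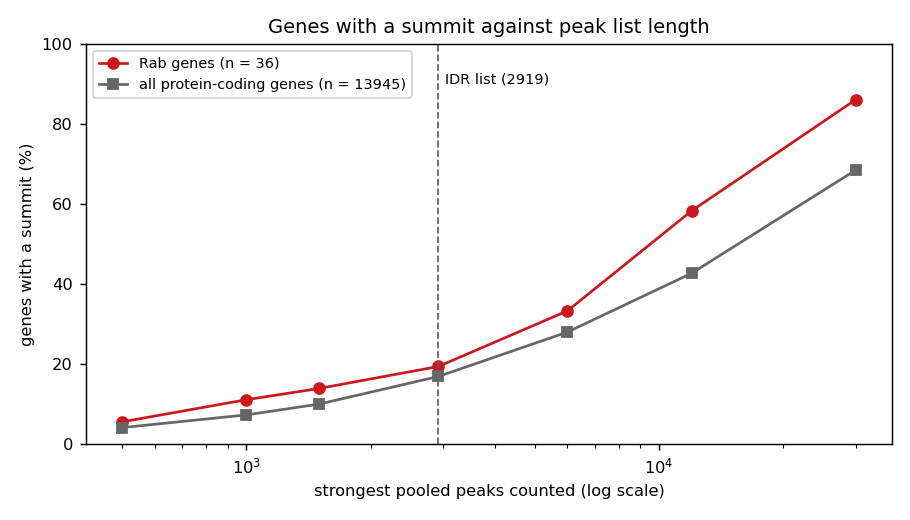
Share of genes with a summit in their span (vertical axis, percent) as the strongest pooled peaks are counted from 500 to 30000 (horizontal axis, log scale), for 36 Rab genes (circles) and 13945 protein-coding genes (squares). The points lie close together up to the 2919 peaks of the IDR list, at 19.4% of Rab genes and 16.9% of all genes, and reach 86.1% and 68.5% with all 30000 peaks.

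The strongest Rab peak lay in Rab32, known in flies as lightoid, a GTPase of lysosome-related organelles that is needed for eye pigment granules. It covered 2R:9183512-9183797 and had IDR rank 74. Its ranks were 104, 75 and 50 in replicates 1, 2 and 3 (mean 76.3 ± 27.0, SD, n = 3), with signals of 358, 299 and 358 on each list's own scale. All 3 replicates placed it near the top of their lists, and the replicate summits lay 1 to 21 bp from the pooled summit. The summit lay 2678 bp downstream of the most upstream TSS of Rab32, inside 3 of its 7 transcripts. The nearest TSS of any gene, 269 bp away, belonged to a non-coding gene on the other strand, lncRNA:CR44284, so by distance the summit counts as a promoter summit of that gene, and the nearest TSS of Rab32 itself lay 2165 bp away. Of the 7 windows it was the only one with a forkhead word, centred 29 bp from the summit, and it also held a GATA word.

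Rab11, the GTPase of recycling endosomes, had the next strongest peak, at 3R:21113282-21113454 with IDR rank 349. The ranks were 503, 428 and 226 in the 3 replicates (mean 386 ± 143, SD, n = 3), with signals of 199, 150 and 219. The summits of the replicates lay within 25 bp of the pooled one. The peak lay in an intron, inside both annotated transcripts and 1948 bp downstream of their single TSS. No other protein-coding gene span held it.

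Rab9, known for traffic between late endosomes and the Golgi, carried a peak of IDR rank 599 at 2L:19434394-19434587. The replicates ranked it 696, 655 and 504 (mean 618 ± 101, SD, n = 3), with signals of 171, 121 and 156. Its position resembled that of the Rab11 peak. It lay in an intron, 1922 bp downstream of the single TSS, and in no other gene's span.

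Rab5, the GTPase of early endosome fusion, held a peak of IDR rank 697 at 2L:2363664-2364067. Replicate ranks were 519, 1162 and 348 (mean 676 ± 429, SD, n = 3), and the signals were 197, 92.8 and 183. Replicate 2 ranked it lowest, and the replicate summits scattered more than those of the other peaks found in all replicates, lying 65 bp from the pooled summit in replicate 1 and farther off in replicate 3. The summit lay 1407 bp downstream of the most upstream of the 6 TSSs of Rab5 and 362 bp from the nearest of them, inside 6 of 9 transcripts. The first TSS of Rab5 stands 72 bp from that of Axud1, which runs the other way, but the peak lay 1479 bp from Axud1.

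**Figure D2:**
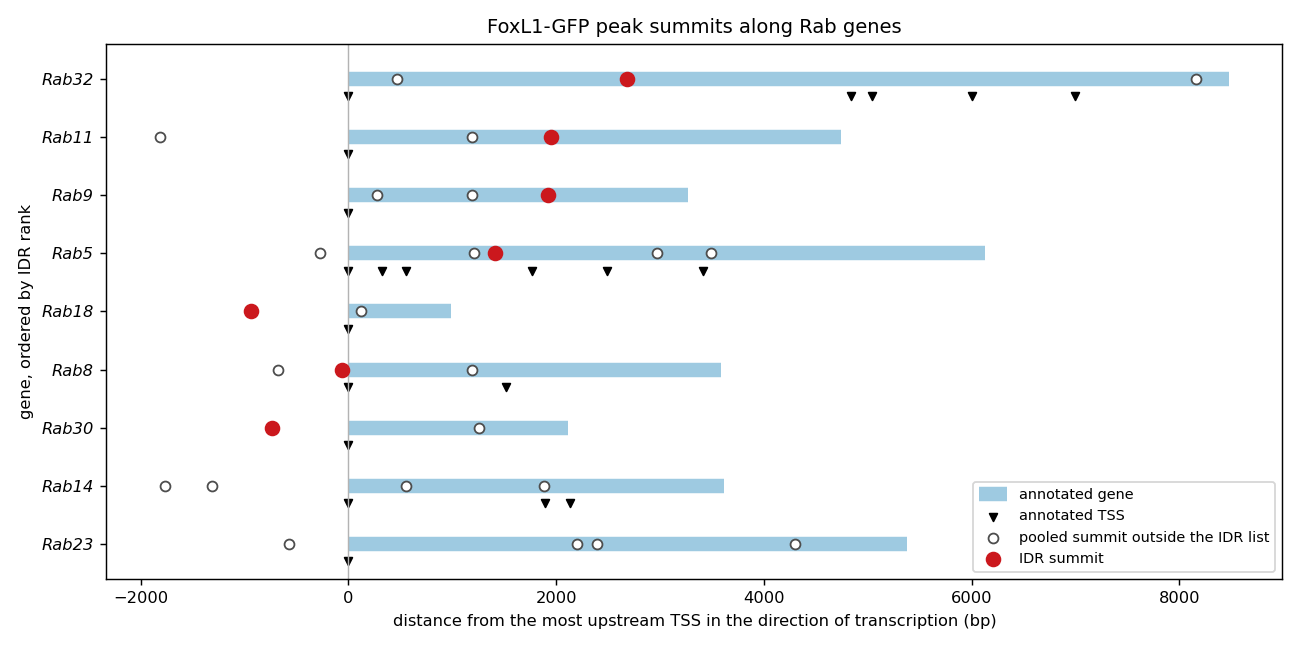
Positions of peak summits along 9 Rab genes, as distance in bp from the most upstream TSS in the direction of transcription (horizontal axis), with genes ordered by IDR rank from the top and Rab14 and Rab23 last. Bars are annotated genes, triangles annotated TSSs, filled circles IDR summits and open circles other pooled summits. The IDR summits of Rab32, Rab11, Rab9 and Rab5 lie inside the genes, and those of Rab18, Rab8 and Rab30 lie upstream.

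The weaker 3 peaks lay upstream of the Rab gene, those of Rab18 and Rab8 at the start of a neighbouring gene and that of Rab30 in an intron of one. Rab18, a GTPase known from mammalian cells for roles at the endoplasmic reticulum and lipid droplets, had a peak of IDR rank 1452 at X:5672545-5672948. The summit was 935 bp upstream of Rab18 and 13 bp from the TSS of RpL35, a ribosomal protein gene. Its ranks of 1179, 3535 and 1545 in the 3 replicates (mean 2086 ± 1268, SD, n = 3) put it among the leading peaks of replicates 1 and 3 and outside those of replicate 2.

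Rab8, which acts in exocytic traffic to the plasma membrane, had a peak of IDR rank 2025 at 3L:19870939-19871342. Its summit lay at a pair of head-to-head genes, 63 bp upstream of the first TSS of Rab8 and just inside the ubiquitin protease gene Usp32, 2 bp from the TSS of Usp32, and the TSSs of both genes are 61 bp apart. The replicate ranks were 1672, 2842 and 2357 (mean 2290 ± 588, SD, n = 3), all leading, and the signals were 108, 59.5 and 73.6. The q-value in replicate 3 was 0.128. This shared promoter cannot be given to either gene by position.

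Rab30, a Golgi GTPase in mammalian cells, had the weakest peak, of IDR rank 2803 at 2L:7033136-7033539. The summit lay 732 bp upstream of Rab30 and inside an intron of Caper, a splicing factor gene that starts close to Rab30 and runs the other way, 617 bp from the nearest TSS of Caper. Replicates 1 and 2 ranked it 4151 and 1956, and replicate 3 had no peak over it among its 30000. It was also the only one of the 7 whose pooled q-value, 0.0512, was not under 0.05.

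Position and strength went together among these 7 peaks. The 4 summits inside the genes had IDR ranks of 74 to 697, and the 3 upstream had ranks of 1452 to 2803. This order was noticed after the values were seen and rests on 7 peaks. Only in Rab11, Rab9 and Rab5 was the TSS nearest to the summit one of the Rab gene itself, which is 8.33% of members, against 11.3% of all protein-coding genes. A summit within 500 bp of an own TSS was found for Rab5 and Rab8, 5.56% of members, against 9.34% of all genes. Of the 7 summits, 4 lay in the span of a further protein-coding gene (95% Wilson interval for the 4 of 7, 25 to 84.2). Of all IDR summits, 26.7% lay in the spans of 2 or more such genes. The sets differ, since the Rab summits were chosen for lying in a gene span, as 87.6% of all IDR summits do. Within 500 bp of any TSS lay 4 of 7, against 42.1% of all IDR summits. The median rank was 697, against 1460 for the IDR list.

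Forkhead words lay under few of the Rab summits, and the interval on so small a set is wide. Of 7 windows, 1 held 1 of the 4 words (14.3%, 95% Wilson interval 2.57 to 51.3), against 29.9% of all 2919 IDR windows and 16.5% of windows 500 bp to each side. The leading Rab peaks of replicates 1, 2 and 3 gave 25%, 9.09% and 33.3% (mean 22.5% ± 12.3, SD, n = 3). These are shares of only 8, 11 and 9 summits, and the share over all leading peaks of each replicate is not given here. GTAAACA itself was in none of the 7, for which the 95% Wilson interval reaches 35.4% and a limit of 3 counts allows up to 42.9%, and it lay in 8.12% of all IDR windows. GTAAACA did lie inside the Rab5 IDR peak but outside that window, centred 4 bp from a further pooled summit of rank 8333. The nearest forkhead word was 29 bp away at Rab32, 79 bp at Rab5, 86 bp at Rab11, 114 bp at Rab30, 143 bp at Rab9, 411 bp at Rab18 and 900 bp at Rab8. Their median was 114 bp, against 124 bp for all IDR summits.

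Other words were found in 1 or 2 windows each. The related word GCAAACA, looked for after the sequences had been seen, lay in the windows of Rab11 and Rab9, the intronic pair printed first above, and in 8.70% of all IDR windows and 3.44% of flanks. CGATA occurred in the Rab8 window on both strands and in the Rab11 window, against 13.7% of all IDR windows, and 2 or more such words lay in 2.74% of them. GAGAG was found in the Rab18 window alone, against 15.1% of all IDR windows. The windows of Rab5 and Rab30 held none of these words. The base composition of the 7 windows ran from 53.5% to 66.3% A and T, with a median of 61.4%, the same as for the whole list.

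Among the 29 Rab genes with no IDR peak, 24 had at least 1 summit in the pooled relaxed list, where such a summit is common: 31 of all 36 Rab genes (86.1%) had one, against 68.5% of all protein-coding genes. The 4 with the strongest of these peaks were Rab14, Rab23, Rab39 and Rab1. Rab14, which acts between endosomes and the Golgi in mammalian cells, stood at rank 2925 at 2L:14355501-14355904, in an intron 558 bp from its first TSS. The replicates ranked this peak 8100, 1291 and 7043, so that replicate 2 alone had it among its leading peaks. A forkhead word lay 16 bp from the summit. A further Rab14 peak, of rank 3248, lay 17 bp from a TSS inside the gene and was ranked 3683, 6177 and 2604.

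Rab23, a GTPase of planar cell polarity in flies, had its strongest pooled peak at rank 3409, at 3R:5682835-5683238 in its intron. A leading summit lay in its span in all 3 replicates, with best ranks of 2915, 2162 and 2771, but not at the same place. Replicates 1 and 2 led with the intronic peak, which replicate 3 ranked 5631. Replicate 3 led with a peak at the pooled summit 573 bp upstream of Rab23 and 152 bp from the TSS of plx. The peaks of replicates 1 and 2 that overlap this pooled peak ranked 8202 and 5172. That of replicate 1 had its summit 343 bp from the pooled one. Counting leading summits in all 3 replicates, 6 Rab genes qualified, 16.7% of members, against 11.2% of all protein-coding genes, and they were the IDR carriers without Rab18 and Rab30 and with Rab23.

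Rab39 and Rab1 had peaks near their starts. The Rab39 peak, of pooled rank 4207 at X:7734277-7734680, lay 41 bp from the TSS of Pdp and 444 bp from that of Rab39. Its replicate ranks were 3067, 3567 and 12298. Rab1, which acts in transport from the endoplasmic reticulum to the Golgi, had a peak of pooled rank 4360 at 3R:21268903-21269306, 45 bp from its TSS. Replicates 1 and 2 ranked it 3534 and 2345, and replicate 3 had no peak over it.

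**Figure D3:**
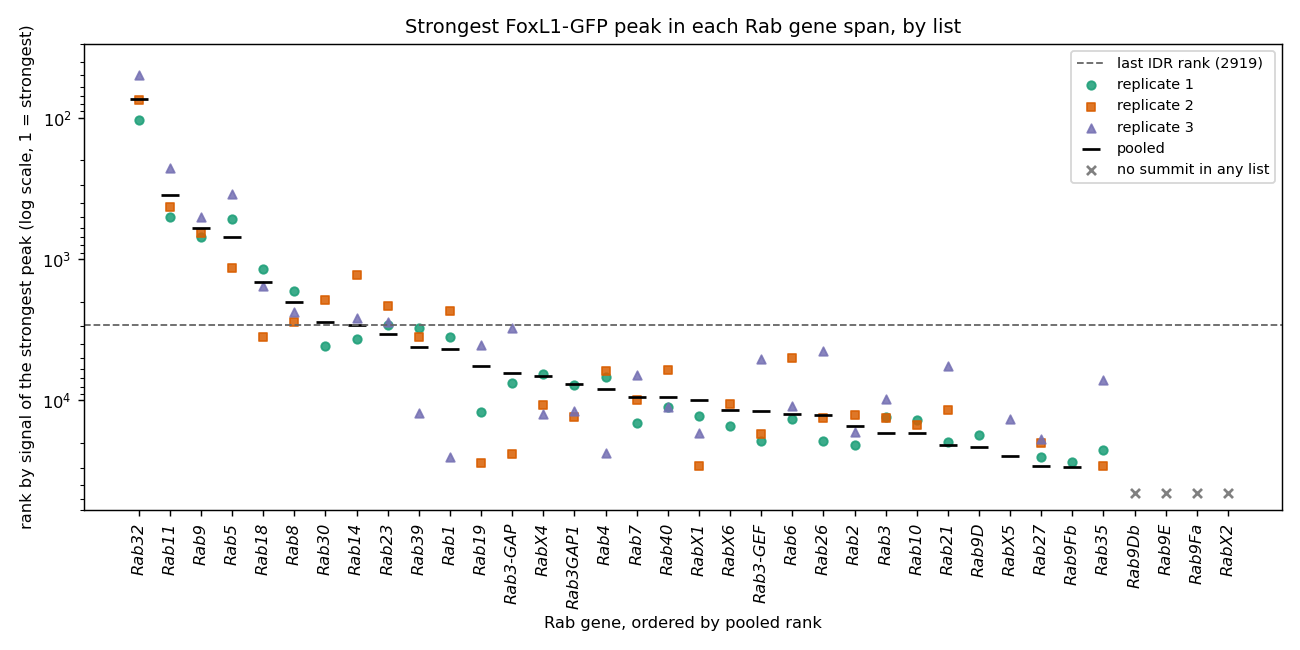
Rank by signal of the strongest peak in the span of each of 36 Rab genes (vertical axis, log scale, strongest at the top), in replicates 1, 2 and 3 (circles, squares, triangles) and the pooled list (bars), with genes ordered by pooled rank. Crosses mark 4 genes with no summit in any list, and the dashed line marks rank 2919. Rab32, Rab11, Rab9, Rab5, Rab8 and Rab23 stand above the line in every replicate, whereas ranks below the line scatter widely between replicates.

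By compartment, the carriers were spread over groups of at most 5 genes, beside a share of 16.9% over all protein-coding genes. Counts in groups this small do not tell the compartments apart. The early endosome genes had Rab5 as a carrier and Rab21 without one, with pooled rank 20791. Of 4 recycling genes Rab11 was the carrier. Rab4, of early recycling, stood at rank 8257, and Rab35 had no pooled summit at all. Late endosome genes had Rab9, while Rab7, the GTPase of late endosomes and lysosomes, had a best pooled rank of 9516.

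Of the 5 genes of the endoplasmic reticulum and Golgi, Rab18 and Rab30 carried the upstream peaks described above, against 16.9% of all protein-coding genes. Rab2 and Rab6 stood at ranks 15145 and 12427 and Rab1 at 4360. Among 5 genes of regulated or polarised secretion, Rab8 alone had an IDR peak. Rab3, of synaptic vesicles, had a best rank of 16908, Rab10 of 17176, Rab26 of 12636 and Rab27 of 29123. Rab19 and Rab40 stood at ranks 5680 and 9524. The 3 regulators of Rab3 had best ranks of 6382 for Rab3-GAP, 7687 for Rab3GAP1 and 11956 for Rab3-GEF, although Rab3-GEF at 24081 bp is the longest gene of the set.

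None of the 10 divergent genes, which are RabX1, RabX2, RabX4, RabX5, RabX6 and the Rab9 relatives Rab9D, Rab9Db, Rab9E, Rab9Fa and Rab9Fb, carried an IDR peak, against 16.9% of all protein-coding genes. Of these, 8 are genes of up to 1465 bp, where the share over all genes was 7.33%, so a count of 0 lies near the background. RabX4 came closest at pooled rank 6780, ahead of RabX1 at 10010, RabX6 at 11630 and RabX5 at 24793. Rab9Db, Rab9E, Rab9Fa and RabX2 had no summit in any of the pooled or replicate lists, and Rab9D and Rab9Fb each had 1 weak pooled summit, at ranks 21263 and 29842. These are short X-linked genes of 791 to 897 bp. In 4 of them the share of 50-base words of the span that occur once on the 6 arms was reduced, at 72.3% for Rab9D, 71.5% for Rab9Db, 70.5% for Rab9E and 68.4% for Rab9Fa, against 99.8% for Rab9Fb and 92.9% for RabX2. The part of these repeats in the missing peaks was not tested. On the X as a whole, 1 of 14 Rab genes carried an IDR peak, against 15.9% of X-linked protein-coding genes, and on the autosomes 6 of 22, against 17.1%.

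Genes that act with Rab proteins were taken from 3 lists, which were chosen with earlier results of these data known. Of 22 regulators of the Rab cycle other than the members, 9 carried an IDR peak (40.9%, 95% Wilson interval 23.3 to 61.3), against 16.9% of all protein-coding genes. Of its 13 genes over 3534 bp, 6 were carriers, against 31.7% of all genes of that length. Of its 9 shorter genes, 3 were carriers, against 7.33% of all genes of up to 1465 bp and 11.8% of those between. Its strongest peaks were those of sky (skywalker, a GAP of synaptic vesicle traffic, rank 310, in a gene of 47597 bp), spri (sprint, a homologue of Rab5 exchange factors, rank 723), Evi5 (a GAP, rank 731) and plx (rank 1321). The sky summit lay 3966 bp from the TSS of CR33317 and 6773 bp from that of sky. The weaker carriers, named after their values were seen, included Ccz1 and Mon1, whose products together form the core of the Rab7 exchange factor. Ccz1 (rank 1816) and Mon1 (rank 1836) had summits 6 and 30 bp from their TSSs.

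Among 32 effectors and tethers, 8 carried a peak (25%, 95% Wilson interval 13.3 to 42.1), against 16.9% of all protein-coding genes. Those over 3534 bp gave 7 of 15, against 31.7% of all genes of that length. The shorter ones gave 1 of 17, against 7.33% of all genes of up to 1465 bp and 11.8% of those between. The strongest peaks were those of Rip11 (rank 1018) and nuf (nuclear fallout, rank 1169), which both encode Rab11 effectors, of BicD (rank 1212), a dynein adaptor, and of btsz (rank 1641), a synaptotagmin-like protein. The BicD summit lay 5108 bp from the TSS of Sgt and 6720 bp from that of BicD. Of 30 other small GTPase genes, 7 carried a peak (23.3%, 95% Wilson interval 11.8 to 40.9), against the same 16.9%. Among those over 3534 bp, 3 of 11 did, against 31.7%. The shorter ones gave 4 of 19, against the same 7.33% and 11.8%. The carriers were led by Mtl (rank 39), Arl1 (rank 330), Arl6 (rank 366) and Sar1 (rank 403), whose protein drives the budding of COPII vesicles. The Mtl summit lay 101 bp from the TSS of CG5611 and 251 bp from that of Mtl. The Arl6 summit lay 5 bp from the TSS of RpL11 and 1842 bp from that of Arl6. The intervals of the Rab genes and of each of the 3 lists overlap, and no test between lists was made.

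**Figure D4:**
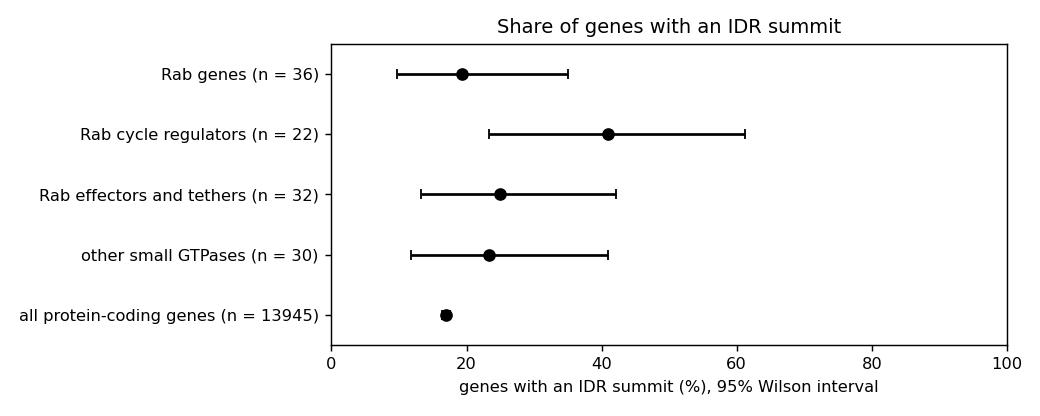
Share of genes with an IDR summit in their span (horizontal axis, percent), with 95% Wilson intervals as bars, for the Rab genes, 3 related lists and all protein-coding genes, from top to bottom. The Rab genes, at 19.4%, stand near the 16.9% of all genes. The Rab cycle regulators, at 40.9%, are the highest of the lists, and 13 of their 22 genes are over 3534 bp. The lists were chosen with earlier results of these data known.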

How the data were processed

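The deposited peak lists, on dm6, were used unchanged. Per the deposited file descriptions, the relaxed lists of single and pooled replicates share 1 input alignment, and the IDR list was derived from them. No source used here names the peak caller, the aligner or the IDR threshold. Peak strength is the deposited signal, used to rank within a list, and significance is the deposited −log10 q-value. The 2919 IDR peaks were the strongest 2919 of the pooled list. A free-text label calls the samples input controls, whereas the assay and antibody labels mark an immunoprecipitation, which was assumed. The age label does not read as hours, so that of the source name was taken.

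Gene models were Ensembl release 115 on arms that contain every peak. Promoter summits lay within 500 bp of a TSS, words were searched within 50 bp, and flanks lay 500 bp to each side. Of 90 listed partner names, 1 matched no gene, and others were left out as Rab genes. Named were all carriers, all members by role with the 4 strongest outside the IDR list, the 4 strongest of each list and neighbours whose TSS was nearest. Exceptions are marked. Members, lists and words were chosen with earlier results of these data known. No test was run, since there is 1 group, and intervals cover counting error alone. Replicates come from 1 strain, so their spread is not that between lines. Counting of summits and words was checked on simulated data. Python 3.11.15 was used with SciPy 1.17.1, NumPy 2.4.6, matplotlib 3.10.9 and pandas 2.3.3.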

Additional observations from a re-analysis of the deposited data

How the results depend on the processing

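The count of Rab genes with an IDR peak was 7 and stayed within 1.5 times of that with 1000 bp upstream, peak overlap in place of summits, the strongest 1459 peaks, pooled peaks with q under 0.05 and without the 3 regulators. It was 4 without an upstream part (losing Rab18, Rab8 and Rab30), 2 within 500 bp of an own TSS and 3 with the nearest TSS. The count of summits was the same in each case, since each carrier held 1 IDR summit. Of the 7 carriers, 5 to 6 genes and summits were kept without 1 replicate, when a leading peak was required in both other replicates. Genes outside the IDR list, such as Rab23 with leading summits in all 3 replicates, were not counted, so the count could only fall. The mean per replicate was 4.67 with 1500 leading peaks and 12.0 with 6000, as fewer or more peaks are counted, and 7.50 to 8.50 without 1 replicate. The share of summits within 500 bp of a TSS (57.1%) was 28.6% within 200 bp or with TSSs of Rab genes alone, and 60.0% to 66.7% without 1 replicate. The share with a forkhead word (14.3%) was 0.00% within 25 bp, 0.00% for GTAAACA, 0.00% for the second consensus (ACAAACA and ACAAATA with ATAAACA and ATAAATA), and 42.9% within 100 bp or with GCAAACA added, the last chosen after seeing the data. It was 16.7% to 20.0% without 1 replicate. With 7 windows, 1 window is 14.3%. The median rank of the 7 peaks was 697, and it was 696 and 1162 in replicates 1 and 2 and 426 over the 6 peaks that replicate 3 holds, which lacks that of Rab30, where the cause of the difference was not tested. Adding ltd was not run, since it is listed as Rab32 and is a member. No paired analysis was possible because there is 1 group. Depth is unknown.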
